A study of Mus musculus with 6 samples.

Results

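This report covers the adrenergic receptors and the enzymes and scaffolds that make, break down and read cyclic AMP (cAMP), in inguinal white adipose tissue (iWAT) with and without the zinc transporter ZIP13. The genes were chosen by symbol: the adrenergic receptors (Adra and Adrb), Gnas, the adenylyl cyclases (Adcy), the phosphodiesterases (Pde), the catalytic and regulatory subunits of protein kinase A (Prka), the A-kinase anchoring proteins (Akap), and the transcription factors Creb1 and Crem. The array carried 107 probes for 64 such genes, and 56 of them passed the filter on dim probes and were tested, among 15307 genes tested in all and 21368 named on the array. Adcy1, Adcy8, Akap14, Akap3, Akap4, Akap6, Pde6b and Pde6c were not well above background on all 3 arrays of either genotype and were not tested. Adra2c has a symbol that the rule does not take in, so it was not counted.

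The samples were RNA from the iWAT of 3 wild-type (WT) and 3 Zip13-KO mice, 10 weeks old, each labelled with a single dye and hybridized to its own array. The Zip13-KO allele lacks exons 6 to 8 of Slc39a13 (the gene of ZIP13) in the whole animal, with a Neo cassette in their place, and was made in R1 embryonic stem cells. The WT mice were littermates, both genotypes were backcrossed onto C57BL/6J for at least 7 generations, and all mice ate powdered food. The labels do not say whether the arrays came from the standard or the high-fat diet, or that each sample was a separate animal, so p values measure the spread between these samples only.

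Noradrenaline released by sympathetic nerves acts on fat cells through the beta-adrenergic receptors, which couple to the stimulatory G protein Gs and switch on adenylyl cyclase, the enzyme that makes cAMP. The alpha-2 receptors couple to the inhibitory G protein Gi and oppose this, and the alpha-1 receptors act through Gq and calcium. cAMP releases the catalytic subunits of protein kinase A (PKA) from its regulatory subunits. PKA then phosphorylates lipases and lipid droplet proteins, which starts lipolysis, and transcription factors of the CREB family. Phosphodiesterases end the signal by breaking down cyclic nucleotides, and anchoring proteins hold PKA at particular places in the cell.

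Of the 56 genes tested, 14 were higher in the Zip13-KO than in the WT iWAT (25%), beside 10.3% of all genes tested. A single gene was lower (1.79%), beside 8.38% of all genes tested, and 18.7% of all genes were called in either direction. A gene was called when the Benjamini-Hochberg adjusted p of the limma fit over all genes was under 0.05 and the change was over 0.58 on the log2 scale, about 1.5-fold. The median change of the 56 genes was 0.12 on the log2 scale, beside -4e-04 for all genes. All 3 Zip13-KO arrays lay above all 3 WT arrays for 24 of the 56 genes and below them for 8, and for the other 24 genes the genotypes overlapped. Over all genes the Zip13-KO arrays lay wholly above in 29.2% and wholly below in 25.9%, which makes 55.1% without overlap. The change was above 0 for 35 of the 56 genes, beside 49.9% of all genes. The genes called higher were Adra1a, Adra1d and Adrb1 among the receptors, Adcy3, Adcy5, Adcy6 and Adcy10 among the cyclases, Pde3b, Pde4a and Pde5a, the PKA subunits Prkaca and Prkar2b, and the scaffolds Akap1 and Akap7. The gene called lower was Adcy7.

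**Figure D1:**
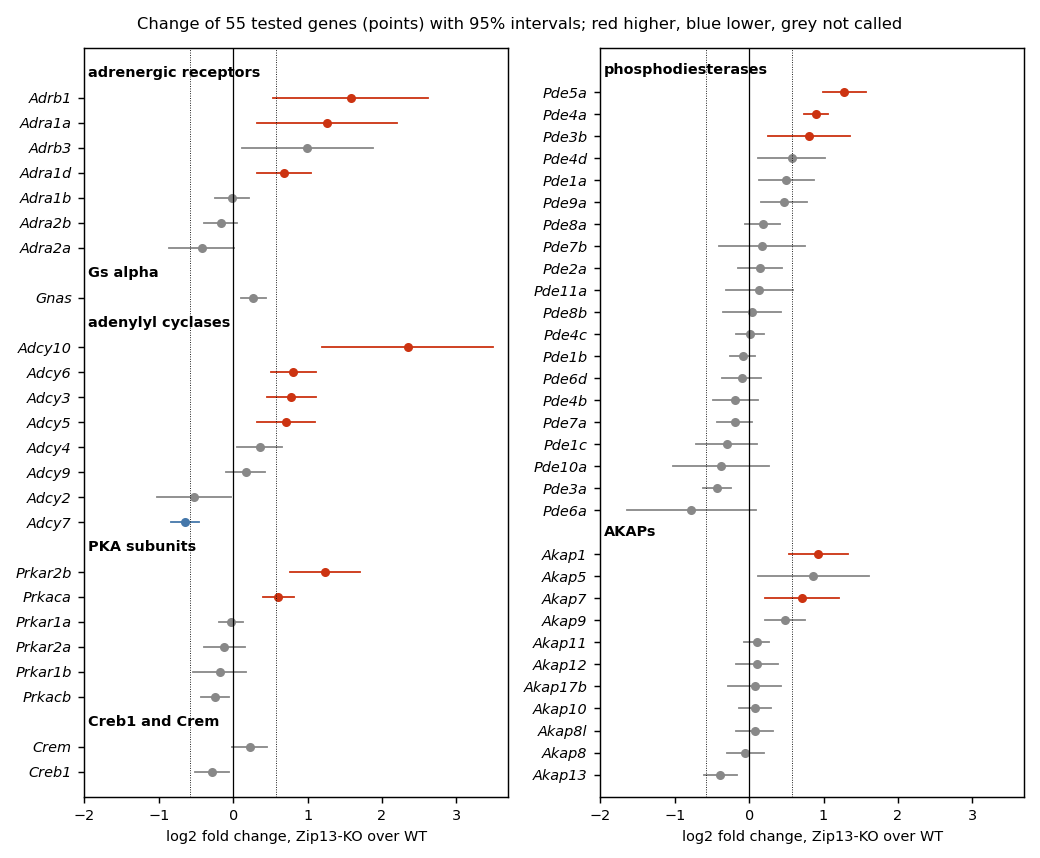
Change of each of 55 of the tested genes, as log2 fold change of Zip13-KO over WT (x axis) with its 95% interval, grouped by role; red genes were called higher, blue lower, grey not called, and dotted lines mark 0.58 in either direction. The called genes reach from 0.60 for Prkaca to 2.34 for Adcy10, and Adcy7 alone lies past the dotted line on the left with an interval clear of 0.

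Slc39a13 itself, which checks the labels, read 11.29, 10.87 and 10.72 in WT and 6.76, 6.66 and 6.47 in Zip13-KO (normalized log2 intensity), a fall with an adjusted p of 0.00128. Whether its probe lies inside the deleted exons was not determined. The arrays were scanned once on 1 slide, no spot was saturated, and 58.8% to 63.2% of the spots were well above background. Intensities correlated at 0.986 or more within a genotype and at 0.960 to 0.984 between genotypes. The number that follows the barcode in the file headers was 1 for Zip13-KO replicate 1 and the 3 WT arrays. It was 2 for Zip13-KO replicates 2 and 3. This number is called the slide column here, and whether it counts columns or rows of the slide was not determined. In a fit with the slide column as a term no member was called in either direction, with adjusted p values of 0.0578 to 0.291 for the 15 called genes, and over all genes 0 were higher and 7 lower. Within column 1 a single Zip13-KO array allows no test. There Zip13-KO replicate 1 differed from the WT mean by a median of 0.15 over the 56 members. The same median was not taken over all genes.

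Cell type markers differed between the genotypes too, and in bulk tissue fewer cells of a type and less RNA per cell cannot be told apart. The adipocyte markers, of which all 12 were measured, had summed intensities between 734414 and 930290 in WT and between 1032691 and 1060136 in Zip13-KO. Of these, Plin1, Lipe, Pparg and Cebpa were called higher (33.3%), beside 10.3% of all genes. Pparg rose most (1.13) and Cfd least (0.03). The 12 macrophage markers had sums of 112405 to 156160 in WT and of 57773 to 73476 in Zip13-KO. Among them 8 were called lower (66.7%), beside 8.38% of all genes. Fcgr1 fell most (-2.57) and Itgam least (-0.17). Neither marker set had a member that failed the filter on dim probes. WT replicate 1 had the lowest adipocyte sum and the highest macrophage sum of the WT arrays. The same array was the lowest of the 3 WT arrays for 12 of the 14 genes called higher (85.7%), beside 51.8% of all members and 41.4% of all genes tested. Without WT replicate 1, 9 members were called higher. The part of cell composition in the results that follow was not tested.

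**Figure D2:**
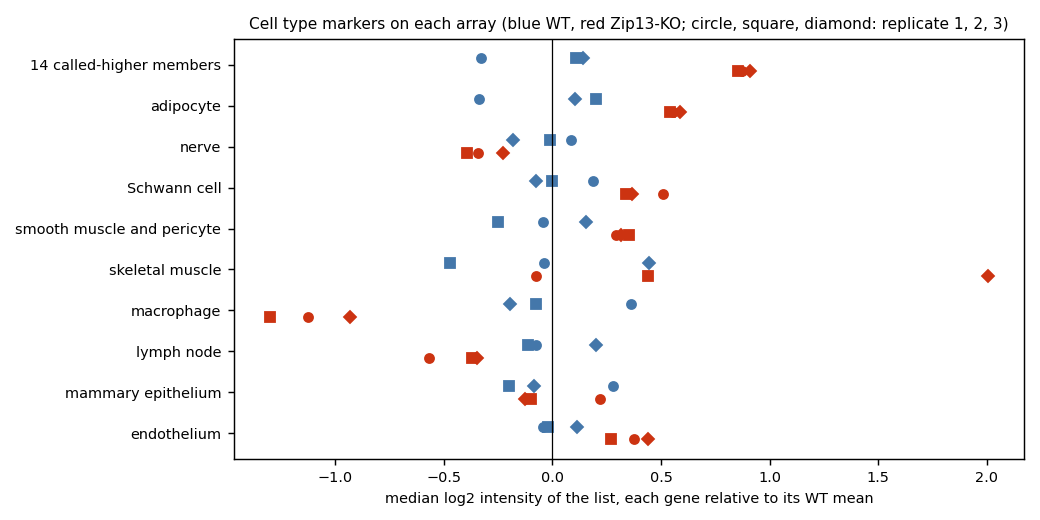
Median log2 intensity of each marker list on each array, every gene taken relative to its WT mean (x axis), with the 14 called-higher members on top; blue is WT, red Zip13-KO, and the circle, square and diamond are replicates 1, 2 and 3. The Zip13-KO arrays lie to the right for adipocyte markers (0.54 to 0.59) and to the left for macrophage markers (-1.30 to -0.93), and Zip13-KO replicate 3 stands apart for skeletal muscle markers (2.01).

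Among the 8 adrenergic receptors, 3 were called higher (37.5%) and none lower, beside 10.3% and 8.38% of all genes. The median change of the receptors was 0.33. Adrb1, the beta-1 receptor, which couples to Gs, rose most. Its WT arrays read 5.43, 6.93 and 6.75, and its Zip13-KO arrays 7.75, 7.70 and 8.40. The genotypes did not overlap, and WT replicate 1 was more than 1 log2 unit below the other WT arrays. The change was 1.58 ± 0.43 on the log2 scale (SE, n = 3 per genotype), or 2.98-fold, with an adjusted p of 0.0349. A second, dimmer probe of the same transcript rose less, by 0.28 with an adjusted p of 0.14, and was not called. Adrb1 lost its call when WT replicate 3 or a Zip13-KO array was left out (adjusted p 0.0506 to 0.0992), and its change was 0.93 for the mean of its probes and 0.95 with normexp, a model-based background correction, both still called.

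Adrb3 encodes the beta-3 receptor, the main beta receptor of rodent fat cells. Its WT arrays read 13.00, 14.42 and 14.11, and its Zip13-KO arrays 14.98, 14.64 and 14.90. The genotypes did not overlap, but WT replicate 1 lay far below the other WT arrays and widened the spread. The log2 fold change was 0.99 ± 0.36 (SE, n = 3 per genotype) with an adjusted p of 0.0782, so Adrb3 was not called. Its interval ran from 0.11 to 1.88, and its second probe gave 0.91 with an adjusted p of 0.0947. Adrb3 was called when the arrays were scaled by their 75th percentile and when WT replicate 2 was left out (adjusted p 0.0479 and 0.0473). Without WT replicate 1 the change was 0.56, under the size asked for, with an adjusted p of 0.0417.

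Among the alpha-1 receptors, Adra1a and Adra1d were called higher and Adra1b was not called. Adra1a, the alpha-1A receptor, read 4.18, 5.57 and 5.46 in WT and 6.06, 6.62 and 6.32 in Zip13-KO. Every Zip13-KO array was above every WT array, and WT replicate 1 was again the lowest. The rise of 1.26 ± 0.39 had an adjusted p of 0.0489, close to the threshold. Leaving out WT replicate 3 or a Zip13-KO array took its call away (adjusted p 0.0597 to 0.138), and without WT replicate 1 the change was 0.82. With normexp it was 0.53 and not called, and without background correction 0.73. Adra1d, the alpha-1D receptor, read 5.71, 6.10 and 6.07 in WT and 6.79, 6.43 and 6.70 in Zip13-KO, again with no overlap. Its log2 fold change was 0.68 ± 0.15 with an adjusted p of 0.0182, and its second probe rose by 0.80 and was also called. Without WT replicate 1, Zip13-KO replicate 1 or Zip13-KO replicate 3 the call was lost, with changes of 0.56 to 0.65. It was also lost with normexp (0.37), without background correction (0.41) and in the authors' deposited values (0.42). Adra1b, the alpha-1B receptor, overlapped between the genotypes, with a change of -0.02 and an interval of -0.25 to 0.22. Its second, dimmer probe lay lower in every Zip13-KO array, by -0.32 with an adjusted p of 0.0823, and was not called.

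Adra2a and Adra2b, a pair of alpha-2 receptors, which couple to Gi, were not called. Adra2a, the alpha-2A receptor of fat cells and nerve endings, read 8.09, 7.72 and 7.66 in WT and 7.66, 7.12 and 7.42 in Zip13-KO. The highest Zip13-KO array was level with the lowest WT array, and the change of -0.43 ± 0.18 had an adjusted p of 0.111. Adra2b changed by -0.17 with an adjusted p of 0.197. The difference between the receptor classes was not tested.

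**Figure D3:**
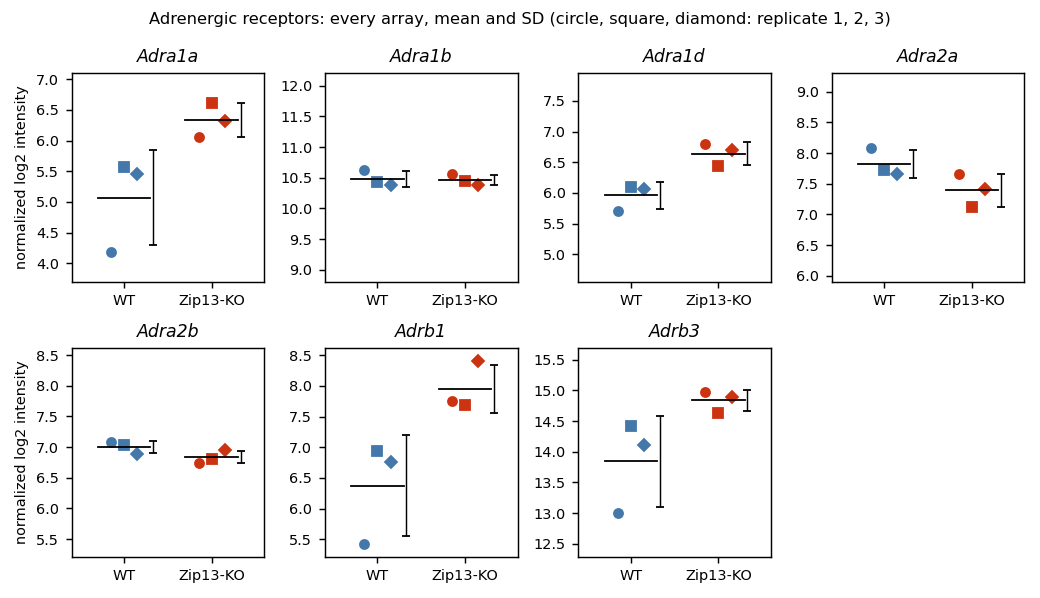
Normalized log2 intensity of 7 adrenergic receptors on every array (y axis, a window of equal height in each panel), with the mean of each genotype as a line and its SD (n = 3) as a bar. The Zip13-KO arrays lie above all WT arrays for Adra1a, Adra1d, Adrb1 and Adrb3, and WT replicate 1 (circle) is the lowest WT array in each of these 4 panels.

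Gnas encodes the alpha subunit of Gs, and its brightest probe differed little between genotypes. That probe read 14.88, 14.98 and 14.98 in WT and 15.24, 15.19 and 15.21 in Zip13-KO. The genotypes did not overlap and the adjusted p was 0.0307, but the change of 0.27, 1.20-fold, was under the size asked for. The imprinted locus gives several transcripts. A probe of another Gnas transcript was lower in Zip13-KO, by -0.56 with an adjusted p of 0.0159, so the 2 probes of Gnas went in opposite directions. Taking the mean of the probes turned the change of Gnas to -0.15.

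Among the 8 adenylyl cyclases tested, 4 were called higher (50%) and 1 lower (12.5%), beside 10.3% and 8.38% of all genes. The median change of the cyclases was 0.53. Adcy10, the soluble cyclase, which is switched on by bicarbonate and calcium and not by G proteins, had the largest rise of all 56 genes. It read 5.47, 6.51 and 7.05 in WT and 8.71, 9.28 and 8.07 in Zip13-KO. Each Zip13-KO array was at least 1 log2 unit above the highest WT array. The log2 fold change was 2.34 ± 0.47 (SE, n = 3 per genotype), or 5.08-fold, with an adjusted p of 0.0150. A second, dimmer probe rose by 2.47 and was also called, but it passed the filter on dim probes only through the Zip13-KO arrays. It was well above background on 2 of the 3 WT arrays. Its value in WT replicate 1 (3.20) lay under the lowest signal well above background on that array (3.31). For the brighter probe the adjusted p was 0.0529 to 0.0555 without Zip13-KO replicate 1 or 2.

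The other 3 cyclases that rose are membrane enzymes that respond to Gs. Adcy6, which calcium inhibits, read 10.17, 10.54 and 10.57 in WT and 11.23, 11.20 and 11.29 in Zip13-KO. The Zip13-KO arrays lay within 0.1 of one another and clear of the WT arrays. Its change of 0.81 ± 0.12 had an adjusted p of 0.00822 and kept its call when any single array was left out. Adcy5, its closest relative, read 10.23, 10.84 and 10.64 in WT and 11.27, 11.24 and 11.34 in Zip13-KO. The genotypes did not overlap, the change was 0.71 ± 0.16 (adjusted p 0.0203), and 2 of its 3 probes were called. Its call was lost without WT replicate 1 or any Zip13-KO array, with changes of 0.54 to 0.73. Adcy3 read 7.56, 7.27 and 7.21 in WT and 7.93, 8.16 and 8.30 in Zip13-KO. It rose by 0.78 ± 0.14 (adjusted p 0.0110), and it was 1 of the 2 genes called higher for which WT replicate 1 was not the lowest WT array. With normexp its change of 0.57 was just under the size asked for.

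Adcy7, a calcium-insensitive cyclase known from blood and immune cells, was the only member called lower. It read 12.21, 12.08 and 12.19 in WT and 11.45, 11.54 and 11.54 in Zip13-KO. The genotypes were apart by more than their own spread, and the change of -0.65 ± 0.08 had an adjusted p of 0.00548. The call held when any single array was left out. The macrophage markers moved the same way on the same arrays, as given above, and their part in the fall of Adcy7 was not tested. Of the cyclases not called, Adcy4 changed by 0.35, Adcy9 by 0.17 and Adcy2 by -0.53, with adjusted p values of 0.0679, 0.257 and 0.0883. Without WT replicate 3, Adcy2 was called lower beside Adcy7.

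Of the 20 phosphodiesterases tested, 3 were called higher (15%) and none lower, beside 10.3% and 8.38% of all genes. The median change of the class was 0.09. The 3 stand in 3 groups, set by the substrate of the family in the gene's symbol. Pde4a was among 8 of families that break down cAMP, and Pde3b among 8 of families that take both cyclic nucleotides. Pde5a was among 4 of families that take cGMP, where Pde6d, a subunit that is not itself an enzyme, was counted by its symbol. Pde3b is the isoform through which insulin restrains lipolysis in fat cells. It read 12.47, 13.02 and 13.35 in WT and 13.69, 13.66 and 13.91 in Zip13-KO. Its lowest Zip13-KO value was 0.3 above the highest WT array, and the change was 0.81 ± 0.23 (adjusted p 0.0382). Without WT replicate 1, WT replicate 2 or any Zip13-KO array the call was lost, with changes of 0.56 to 0.85 and adjusted p values of 0.0348 to 0.107.

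Pde4a had the smallest spread of the called genes and the lowest p value of the 56. It read 9.44, 9.43 and 9.37 in WT and 10.33, 10.32 and 10.29 in Zip13-KO. Each genotype lay within 0.1 log2 units. The rise was 0.90 ± 0.07 (adjusted p 0.00405), and its second probe rose by 0.83 and was called as well. WT replicate 1 was the highest WT array here, unlike for most of the genes that rose. Pde5a, the cGMP enzyme known from smooth muscle, read 8.84, 9.16 and 9.16 in WT and 10.27, 10.45 and 10.27 in Zip13-KO. Its rise of 1.28 ± 0.12, or 2.43-fold, had an adjusted p of 0.00442. Both genes kept their call when any single array was left out. The smooth muscle and pericyte markers had sums of 17908 to 24500 in WT and of 25682 to 26113 in Zip13-KO. Among them 2 of 10 were called higher (20%, Cspg4 by 1.42 and Rgs5) and none lower, beside 10.3% and 8.38% of all genes. Pdgfrb had the lowest change (-0.27), and Lmod1 was not tested. The part of these markers in the rise of Pde5a was not tested.

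The other 17 phosphodiesterases ranged from -0.78 for Pde6a to 0.57 for Pde4d. Pde6a read 4.42, 4.67 and 4.66 in WT and 4.21, 4.26 and 2.95 in Zip13-KO, and its adjusted p was 0.137. Its value in Zip13-KO replicate 3 lay under the lowest signal well above background on that array (3.80), so the size of its change, and its place as the lowest of the class, rest on a value at background. Pde4d had an adjusted p of 0.0561. Pde3a, the relative of Pde3b found in heart and vessels, changed by -0.43 with an adjusted p of 0.0116, under the size asked for. Pde1a and Pde9a changed by 0.50 and 0.47, with adjusted p values of 0.0494 and 0.0327, also under that size. Pde4c, which had the brightest probe of the class, changed by 0.01. Pde1c was dim, and well above background on none of the Zip13-KO arrays.

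PKA is a pair of catalytic and a pair of regulatory subunits. Of its 6 genes, 2 were called higher (33.3%) and none lower, beside 10.3% and 8.38% of all genes, and 4 were not called. The median change of the class was -0.07. Prkar2b, the RII-beta subunit that is the main regulatory form in fat, read 14.17, 14.70 and 14.93 in WT and 15.83, 15.80 and 15.89 in Zip13-KO. The Zip13-KO arrays lay within 0.1 of one another and further above the highest WT array than the WT arrays lay apart. The change was 1.24 ± 0.19 (SE, n = 3 per genotype), or 2.36-fold, with an adjusted p of 0.00855. All 3 probes of Prkar2b were called, with rises of 1.24, 1.44 and 1.39, and the call held when any single array was left out.

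Prkaca, the C-alpha catalytic subunit, read 7.73, 7.86 and 7.93 in WT and 8.52, 8.42 and 8.39 in Zip13-KO. The genotypes were apart, but the change of 0.60 ± 0.09 (adjusted p 0.00724) lay just past the size asked for. Without WT replicate 1 or Zip13-KO replicate 1 it fell to 0.55 and 0.56 and was not called. Nor was it called with normexp, without background correction or in the deposited values, with changes of 0.52 to 0.54. Prkacb, the C-beta subunit, read 13.06, 12.95 and 12.98 in WT and 12.72, 12.70 and 12.84 in Zip13-KO. It lay lower in every Zip13-KO array, by -0.25, with an adjusted p of 0.0515. Its second probe overlapped between the genotypes, with a change of -0.06 and an adjusted p of 0.581. The regulatory subunits Prkar1a, Prkar1b and Prkar2a overlapped between the genotypes, with changes of -0.03, -0.18 and -0.12. The interval of Prkar1a was narrow, from -0.19 to 0.13, and its 2 probes differed in sign.

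**Figure D4:**
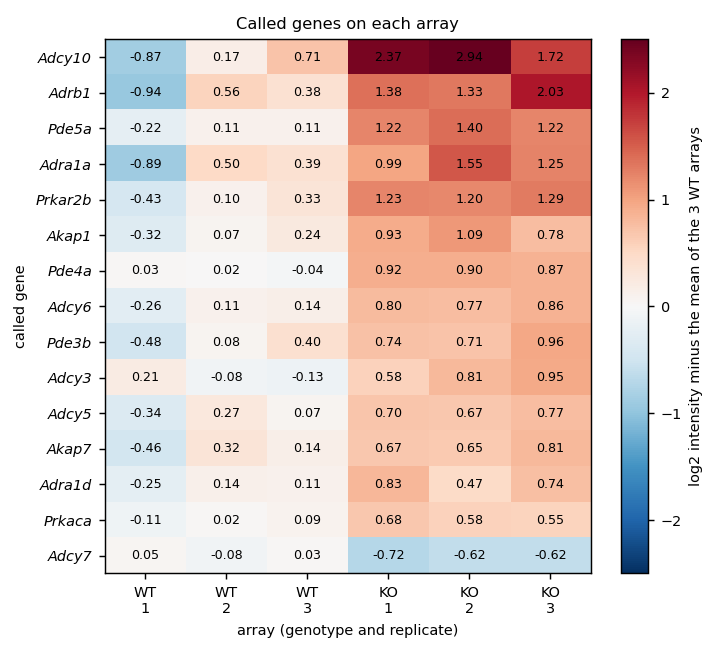
The 15 called genes (rows) on each array (columns; KO is Zip13-KO), as log2 intensity minus the mean of the 3 WT arrays, with the value in each cell. Every red cell of the Zip13-KO columns is above every WT cell of its row, and the WT replicate 1 column is the bluest of the WT columns, from -0.94 for Adrb1 to 0.21 for Adcy3.

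Of the 11 anchoring proteins tested, 2 were called higher (18.2%) and none lower, beside 10.3% and 8.38% of all genes. The median change of the class was 0.10. Akap1, which holds PKA at the outer membrane of mitochondria, read 9.06, 9.45 and 9.62 in WT and 10.31, 10.47 and 10.16 in Zip13-KO. The genotypes did not overlap, and both probes of Akap1 were called, with rises of 0.93 ± 0.16 (adjusted p 0.0111) and 0.85. The call held when any single array was left out. Akap7 read 9.82, 10.59 and 10.42 in WT and 10.95, 10.92 and 11.09 in Zip13-KO. Its 3 probes differed, with changes of 0.71 (called, adjusted p 0.0408), 0.53 and 0.08. Leaving out any single array other than WT replicate 2 took its call away, with changes of 0.48 to 0.78, and so did taking the mean of its probes (0.44).

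Akap5 had the second-largest change of the class, 0.86, but its WT arrays spread from 4.73 to 5.85 and the adjusted p was 0.0731. Akap9, a scaffold of the centrosome and Golgi, changed by 0.48 with an adjusted p of 0.0214, under the size asked for. Akap13, which also activates the GTPase RhoA and had the brightest probe of the class, read 12.88, 12.70 and 12.91 in WT and 12.37, 12.45 and 12.50 in Zip13-KO. It had the lowest value of the class, -0.39, with an adjusted p of 0.0217, and 1 of its other probes was called lower (-0.75). The probes of Akap10, Akap11 and Akap17b differed in sign, as did those of Pde7b among the phosphodiesterases, and none of these was called.

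Creb1, the transcription factor that PKA phosphorylates, read 7.46, 7.59 and 7.68 in WT and 7.37, 7.33 and 7.19 in Zip13-KO. The Zip13-KO arrays lay below the WT arrays, by -0.28, with an adjusted p of 0.0585. The second probe of Creb1 overlapped between the genotypes, with a change of -0.07 and an adjusted p of 0.818. For Crem, whose gene also gives the cAMP-induced repressor ICER, the Zip13-KO arrays lay above the WT arrays, by 0.22, with an adjusted p of 0.121. Neither was called.

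CREB binds the cAMP response element, written TGACGTCA, and the shorter TGACG, which the full element contains on both strands. Both were searched on both strands in RefSeq promoters (GRCm38.p6; 250 bases before to 50 bases after a start site), which were at hand for 50 of the 64 genes, as 96 promoters. The full element was in 2 of the 96 (2.08%), beside 1.79% of all 32851 promoters. Both were promoters of Prkar1a that overlap, and they hold the same single element. The short form was in 22 of the 96 (22.9%), beside 20.8% of all. Counted by gene, 18 of the 50 members with an entry held the short form in any of their promoters. Among them were 3 of the 10 called higher with an entry (Adrb1, Pde4a and Prkaca), and Adcy7, the gene called lower. This count was not made over all genes, so the 20.8% of promoters is not its background. A match is only a match of letters in this window. The sequences around the matches of these 5 genes are printed below, as those in which a full element was found or a called gene had a match, 5′ to 3′ on the gene's strand, with the element in capitals; a CGTCA is TGACG on the other strand.
Adrb1, chr19:56721969-56722088, plus strand: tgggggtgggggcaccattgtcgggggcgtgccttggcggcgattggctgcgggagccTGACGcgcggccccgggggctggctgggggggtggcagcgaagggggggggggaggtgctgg
Pde4a, chr9:21183981-21184100, plus strand: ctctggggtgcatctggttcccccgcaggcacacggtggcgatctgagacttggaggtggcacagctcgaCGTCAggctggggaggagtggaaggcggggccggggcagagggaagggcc
Prkaca, chr8:83972857-83972976, plus strand: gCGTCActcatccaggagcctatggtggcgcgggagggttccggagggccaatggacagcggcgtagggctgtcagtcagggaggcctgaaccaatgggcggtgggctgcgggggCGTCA
Adcy7, chr8:88282872-88282991, plus strand: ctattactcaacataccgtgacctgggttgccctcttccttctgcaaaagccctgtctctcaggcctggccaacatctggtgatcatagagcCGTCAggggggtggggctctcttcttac
Prkar1a, chr11:109650889-109650916, plus strand: gcgaggcgcatTGACGTCAgcagccgaa
Counted from the start site, the first base of the match is at -90 in Adrb1, -50 in Pde4a, -120 and -6 in Prkaca, -28 in Adcy7 and -49 in Prkar1a. From the start site of the overlapping Prkar1a promoter, the same element begins at 38, past that start. Prkar1a, which alone held the full element, was not called, with a change of -0.03. Which start site is used in iWAT was not measured.

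The rest of the pathway was followed in 6 further lists of genes, beside 10.3% of all genes called higher and 8.38% lower. The counterparts of the core genes (other G protein alpha subunits, receptor kinases, arrestins, PKA inhibitors and cAMP sensors) had 1 of 19 tested genes higher and 1 lower, with a median of -0.01. Without WT replicate 2, 3 were called higher and 2 lower, without WT replicate 3, 2 higher, and without Zip13-KO replicate 3, 2 lower. Gnao1, an alpha subunit of the Gi family, read 4.85, 5.39 and 5.75 in WT and 7.27, 7.18 and 6.96 in Zip13-KO, a rise of 1.81 ± 0.23 (adjusted p 0.00634), or of 0.95 with normexp. Arrb2, the beta-arrestin-2 that uncouples receptors, read 11.34, 11.06 and 11.21 in WT and 10.30, 10.35 and 10.51 in Zip13-KO, a fall of 0.82 (adjusted p 0.00623). The genotypes of both genes were clearly apart, in opposite directions. The CREB family and its coactivators had 1 of 14 tested genes higher, Sik1, a kinase that restrains CREB coactivators. Its change of 0.59 (adjusted p 0.0433) was no longer called without any single array other than Zip13-KO replicate 1, or under any other background correction. The median of that list was -0.10.

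Genes known to be induced by cAMP in fat or other cells rose in 6 of 15 tested (40%), beside 10.3% of all genes, with a median of 0.28. Ucp1, the uncoupling protein of brown and beige fat, read 10.68, 8.20 and 9.42 in WT and 13.19, 15.50 and 15.07 in Zip13-KO, a rise of 5.16 ± 0.82 (adjusted p 0.00883) and the largest of all genes tested. Dio2, which makes active thyroid hormone, rose by 2.19 (adjusted p 0.0146). Nr4a1, a nuclear receptor induced early by cAMP, rose by 1.25 (adjusted p 0.0118). Nr4a2, Ppargc1a and Pck1 were the others called. Not every induced gene moved that way: Atf3 had the lowest value, -1.10 with an adjusted p of 0.0807, and Fos overlapped between the genotypes. Without Zip13-KO replicate 1, Atf3, Fos and Junb were called lower and 5 genes higher.

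Among the proteins on which PKA acts in lipolysis, and their partners on the lipid droplet, 7 of 11 were called higher (63.6%), beside 10.3% of all genes. All 11 changes were above 0, with a median of 0.83. Plin5, a droplet protein that binds the lipase coactivator Abhd5, read 9.87, 10.47 and 11.16 in WT and 12.65, 13.09 and 12.54 in Zip13-KO, a rise of 2.26 (adjusted p 0.00776). Cidea, a droplet protein of brown and beige fat, rose by 2.25 (adjusted p 0.00668), and Aqp7, the glycerol channel of fat cells, by 1.17 (adjusted p 0.00933). Without WT replicate 3 or Zip13-KO replicate 2, 3 genes of this list were called, and leaving out WT replicate 1, Zip13-KO replicate 1 or Zip13-KO replicate 3 left 4. Lipe, Plin1, Cidec, Fabp4 and Pnpla2, 5 of the 11, are on the adipocyte marker list as well.

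The other Gs- and Gi-coupled receptors of fat had 7 of 25 tested genes higher (28%) and 2 lower (8%), with a median of 0.21. Of all genes, 10.3% were higher and 8.38% lower, so the share lower was near that of all genes. Ptger3, a Gi-coupled prostaglandin E2 receptor, read 8.51, 9.03 and 9.80 in WT and 10.84, 11.01 and 10.24 in Zip13-KO, a rise of 1.59 ± 0.36 (adjusted p 0.0213). Adora1, the Gi-coupled adenosine receptor of fat cells, rose by 1.56 (adjusted p 0.00831). Ffar4, a receptor for long-chain fatty acids, rose by 1.43 (adjusted p 0.0278). Adora2b, a Gs-coupled adenosine receptor, read 8.77, 8.08 and 7.53 in WT and 6.10, 6.26 and 6.55 in Zip13-KO, a fall of 1.83 (adjusted p 0.0105). Lpar1, a lysophosphatidic acid receptor, fell by 1.07 (adjusted p 0.00857), but with normexp its change was -0.55 and not called. Adora1 and Adora2b, which take the same ligand and couple to opposite G proteins, were thus called in opposite directions. Without Zip13-KO replicate 1 or 2, 2 genes were called higher, and without replicate 3, 3 genes.

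The genes for making, taking up and breaking down noradrenaline had 3 of 10 tested genes higher (30%) and none lower, with a median of 0.22. Over all genes the shares were 10.3% and 8.38%. Th, tyrosine hydroxylase, the first enzyme of noradrenaline synthesis, read 7.98, 8.22 and 8.17 in WT and 8.81, 8.99 and 8.90 in Zip13-KO, a rise of 0.78 ± 0.10 (adjusted p 0.00586). Slc22a3, a low-affinity transporter that clears noradrenaline, rose by 1.05 (adjusted p 0.0217), or by 0.63 with normexp. Slc6a2, the noradrenaline transporter of nerve endings, read 6.34, 5.07 and 4.07 in WT and 3.76, 3.24 and 4.12 in Zip13-KO, where the genotypes overlapped and 1 of the 3 Zip13-KO arrays was well above background. Its fitted change of -1.45 (adjusted p 0.0956) is therefore set against a level largely at background. Dbh, the last enzyme of synthesis, was too dim to be tested. Without Zip13-KO replicate 1 or 2, 1 gene of the list was called higher. Without WT replicate 1 or 2 or Zip13-KO replicate 3, 2 were. Without WT replicate 3, Ddc and Slc6a2 were called lower. The nerve markers had sums of 5742 to 7036 in WT and of 5213 to 6746 in Zip13-KO. Their median on each array, relative to the WT means, was -0.18 to 0.09 in WT and -0.39 to -0.23 in Zip13-KO. Of the 9 tested, 2 had a change above 0. Th was called higher (11.1%) and Tubb3 (-1.33) and Uchl1 lower (22.2%), and Dbh, Nefl and Nefm were too dim to be tested. The Schwann cell markers summed to 20916 to 23605 and 23897 to 24898. Of 9 tested, S100b (0.84) and Prx were called higher (22.2%) and none lower, and Ngfr was lowest (-0.53). S100b was no longer called without any single array other than WT replicate 1. The part of the nerve and Schwann cell markers in these changes was not tested.

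**Figure D5:**
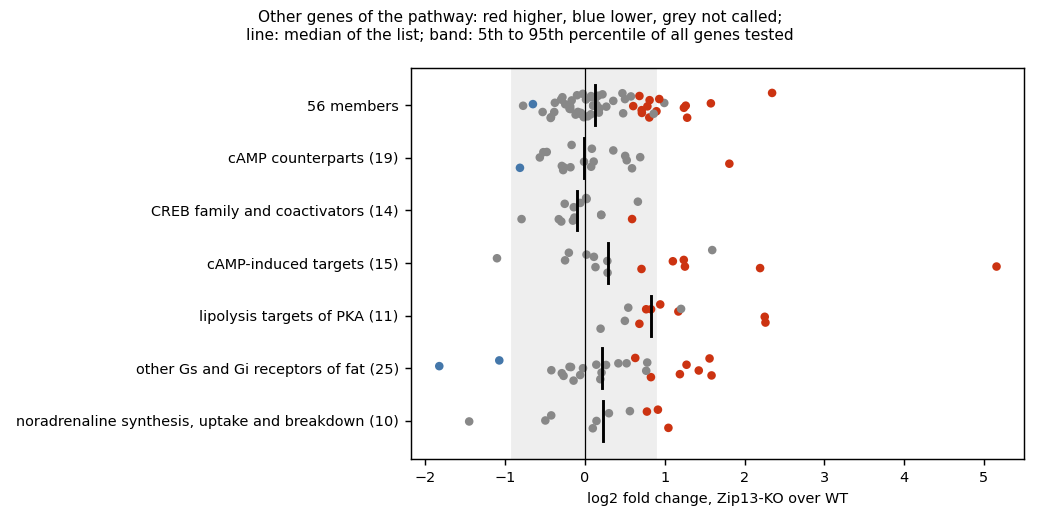
Log2 fold change of Zip13-KO over WT (x axis) for the 56 members and for the tested genes of each further list (number in brackets); red genes were called higher, blue lower, grey not called, the black line is the median, and the grey band holds the 5th to 95th percentile of all genes tested (-0.92 to 0.89). The lipolysis list has the rightmost median (0.83), and Ucp1 lies at 5.16.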

How the data were processed

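Per the file headers, the authors scanned 6 Agilent SurePrint G3 Mouse GE arrays (1 colour) with Feature Extraction 11.5.1.1. The deposited scanner files give each spot's processed signal as an intensity, corrected for background and not normalized between arrays. The authors' deposited table holds quantile normalized log2 intensities without background correction, and was used as an alternative.

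Log2 of the processed signal was quantile normalized, after control and outlier spots were left out and spots of a probe averaged. Probes had to be well above background on all 3 arrays of a genotype. They were named by RefSeq transcript (28331 of 55681), and the brightest kept probe (of 33039, 20316 named) stood for a gene. Values of second probes come from a separate limma fit over the 20316 named kept probes, with its own adjustment of p. The array design was annotated on mm9, so no probe positions are given. Genotypes were compared with limma 3.58.1 in R 4.3.3. The study's methods gave the normalization and both thresholds. Their combined test was replaced by limma, with the methods' t-test as an alternative. The fit was tested on simulated data. An exact permutation test of 3 against 3 arrays cannot give a p below 0.1, so sums over markers are given without a test. The number of arrays limits the precision.

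The members and gene lists were chosen with earlier results of these data known. Named were all called members, all receptors, PKA subunits, Gnas, Creb1 and Crem, the highest, lowest and brightest member of each other class, members whose probes differ in sign, up to 3 called genes each way of a list, and the extremes of each marker list. The values of 3 genes that this rule takes in, among them 1 receptor, are not reported here, though the counts include them. Others named (such as Pde1a, Pde3a, Pde4d, Pde9a, Adcy2, Adcy4, Adcy9, Akap5, Akap9, Atf3, Fos and Slc6a2) were added after their values were seen. Same-numbered WT and Zip13-KO arrays deviated from their group means with correlations of -0.02, 0.04 and -0.08.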

Additional observations from a re-analysis of the deposited data

How the results depend on the processing

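The precision is limited by 3 arrays a genotype, by 1 slide whose columns overlap with genotype, and by dim probes near background. The direction of the 15 called members held under the 12 alternatives that recompute the estimates (the other 8 leave them as they are), and 7 of them kept their call whichever array was left out. The number of members called higher was 14. It was 7 with the methods' t-test and Benjamini-Hochberg adjustment, 5 at an adjusted p under 0.01, 0 with the slide column as a term, and 6 to 17 when single arrays were left out. By that t-test without adjustment it was 13, with normexp 10, without background correction 12 and in the deposited values 12. The number called lower was 1, against 3 with no fold change minimum, 0 with the slide column as a term and 1 to 2 when single arrays were left out. Over all genes, 1576 were higher and 1282 lower, against 707 and 505 at an adjusted p under 0.01, 2951 and 2330 with no fold change minimum, 1007 and 721 with the adjusted t-test, and 0 and 7 with the slide column. With the slide column as a term the contrast rests on Zip13-KO replicate 1 against the WT arrays, and the cause of the lost calls was not tested further. The sample titles do not say whether replicate numbers pair the samples. With the replicate block 12 members were higher (Adra1d and Akap7 were lost) and 1 lower, and over all genes 1278 and 1051. By class, the median of the phosphodiesterases was 0.1404 when probes had to be above background on all 6 arrays and -0.0155 to 0.1571 when single arrays were left out (below 0 without WT replicate 3 or Zip13-KO replicate 1). That of the PKA subunits was -0.0235 for the mean of a gene's probes, -0.0267 with the slide column and -0.0958 to -0.0208 without single arrays. That of the AKAPs was 0.2153 with the slide column, and that of the cyclases 0.3993 to 0.5730 without single arrays. The CREB family had -0.0445 under 75th percentile scaling, -0.0488 with the slide column and -0.1010 to -0.0503 without single arrays. The cAMP-induced targets had 0.4605 for the mean of probes, 0.7433 with the slide column and 0.2688 to 0.6827 without single arrays, lipolysis genes 0.5954 to 1.0443, and other receptors 0.1818 to 0.3666. The median of the cAMP counterparts, -0.0120, turned to 0.0364 for the mean of probes, 0.0326 with no filter, 0.0708 with the slide column and 0.0497 without Zip13-KO replicate 2. That of Creb1 and Crem, -0.0321, turned to 0.0443 to 0.0487 under the other background corrections and for the mean of probes, and to 0.0237 without WT replicate 3. The single genes whose values changed sign were not called. Scaling by the 75th percentile gave 0.0108 for Adra1b, 0.0698 for Prkar1a and 0.0456 for Cr2. The mean of probes gave 0.0711 for Prkar1a, -0.1460 for Gnas, -0.1082 for Akap10 and -0.2077 for Akap17b. The slide column gave 0.0745 for Adra1b, 0.1295 for Cr2 and 0.0354 for Cdh1. Without single arrays, values crossed 0 for Adra1b (-0.0637 to 0.0555), Pde4c (-0.0148 to 0.0631), Pde7b (-0.0062 to 0.4537), Akap17b (-0.0225 to 0.1860) and Cr2 (-0.1403 to 0.0927). The fall of Slc39a13 held throughout, from -4.46 to -3.69.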

Other observations

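Adra2c, the alpha-2C receptor, lies outside the members only because of its symbol, and was looked at after the others. It read 4.23, 4.16 and 4.84 in WT and 5.59, 5.18 and 5.54 in Zip13-KO, so the genotypes did not overlap. Its change of 1.03 ± 0.21 on the log2 scale (limma, adjusted p 0.0162) was called higher, whereas Adra2a and Adra2b were not called.

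Early genes of the cAMP-induced list differed within the Zip13-KO group. Fos read 11.64 in Zip13-KO replicate 1 and 7.79 and 7.04 in replicates 2 and 3, against 9.00, 9.61 and 8.61 in the WT arrays. Fosb read 10.52, 8.82 and 9.22 in Zip13-KO and 7.63, 8.77 and 7.38 in the WT arrays, with an adjusted p of 0.0648. Zip13-KO replicate 1 was the highest array for both genes, and it was the lowest of the Zip13-KO arrays for Ucp1 and Dio2.

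Further markers on the lists were measured for completeness, beside 10.3% of all genes called higher and 8.38% lower. Lymph node markers had sums of 71381 to 86764 in WT and of 51758 to 58547 in Zip13-KO, with 1 of 11 lower. Cr2 had the highest change of that list (-0.04). Endothelial markers summed to 37434 to 40932 and 47871 to 51785, with 3 of 12 higher (Cldn5 most, 0.78) and Vwf lowest (-0.29). Mammary epithelium markers summed to 4761 to 4951 and 4148 to 4643, with none of 8 called at an adjusted p under 0.05. Krt5 had the highest change (0.89) and Cdh1 the lowest (-0.27). Skeletal muscle markers summed to 2661 to 5302 and 3184 to 11272, with none of 11 called and Zip13-KO replicate 3 highest. Ckm had the highest change (1.15) and Ryr1 the lowest (-0.62).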
